A study of Mus musculus with 30 samples.

Results

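Egr1, Egr2, Egr3, Nr4a1, Nr4a2 and Nr4a3, 6 transcription factors that are switched on within minutes to hours of a stimulus, were examined in the gastrocnemius muscle of mice kept on a fixed light schedule or under chronic jet lag. They are 6 of the 56951 gene symbols in the deposited tables, and each was taken by its symbol, on the only row that carries it. The genes were selected on measured values, namely the difference between the groups, the spread between mice and the correlations between these genes within each group. Those quantities are therefore described here without a test. Of the 6 genes, Egr1, Nr4a1 and Nr4a3 passed the expression filter, which asked for more than 20 reads and more than 0.5 FPKM on average, and Egr2, Egr3 and Nr4a2 did not. FPKM is the number of fragments per kilobase of exon, scaled to the library's total, so that levels of genes of unequal length can be set side by side.

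The mice were wild-type C57BL/6J males, 14 weeks old at the start and housed singly with a running wheel. In the LD group (14 mice) a 12:12-h light-dark cycle was kept for 64 weeks, and in the ADV group (16 mice) the cycle was advanced by 8 h every 4 days over the same time. Before the schedules began, all mice had been through a period of constant darkness. Gastrocnemius, a hindlimb muscle made mostly of fast fibers and dissected with the adjoining plantaris, lay in RNAlater before freezing and was sequenced with 1 library per mouse, and the hour at which each muscle was taken is not used here. Libraries held 18875468.5 to 28512674 reads on exons, the mate of a pair counting as 0.5, with medians of 21711467.5 in LD and 22152249.25 in ADV. Transcripts of muscle fibers were abundant in every library, with Acta1, Ckm, Myh1, Myh2, Myh4, Myh7, Tnnt3 and Mylpf summing to 56836 to 77070 FPKM in LD and 57293 to 76523 FPKM in ADV. The replicate numbers are used here as names of mice only. Mice are separate animals, and the closest libraries of a group differed beyond counting error (chi-square per degree of freedom of 10.6 in LD and in ADV).

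The Egr proteins (early growth response) bind GC-rich sites through zinc fingers. The Nr4a proteins are orphan nuclear receptors that act on transcription without a known natural ligand. In muscle, transcripts of both families are known to rise after contraction, nerve input, growth factors, adrenergic signalling and stress, through serum response factor (SRF) on CArG boxes and through CREB on cyclic AMP response elements, and to fall again quickly. Nr4a1 and Nr4a3 are known as regulators of glucose and fatty acid use in muscle fibers, Egr3 is needed for muscle spindles, and Egr2 (Krox20) for the myelin of Schwann cells.

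The sequences before the start sites are shown for Egr2, Nr4a1 and Nr4a3, because motifs of their known activators can be read there. The 250 bases before the start of the canonical GENCODE transcript of these genes and of Nr4a2 were read from GRCm39 (mm39, the build of the deposited tables), and the stretch around the motifs is printed 5′ to 3′ on the strand of the gene. Capitals mark a CArG box, the site of SRF (CC, 6 letters that are each A or T, then GG), and the core letters TGACG, or on the other strand CGTCA, of the cyclic AMP response element.
Egr2, chr10:67373578-67373658, plus strand: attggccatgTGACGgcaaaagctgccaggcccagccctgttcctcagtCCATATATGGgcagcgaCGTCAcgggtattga
Nr4a1, chr15:101164484-101164528, plus strand: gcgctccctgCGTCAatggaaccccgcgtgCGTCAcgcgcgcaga
Nr4a3, chr4:48045064-48045114, plus strand: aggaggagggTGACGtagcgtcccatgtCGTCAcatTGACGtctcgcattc
Egr2 carried a CArG box, CCATATATGG, at 65 to 56 bases before the start, between 2 TGACG cores. Nr4a1 had 2 such cores and Nr4a3 had 3. Among 21770 promoters of the same length, 1.396% held a CArG box, 18.03% a TGACG core, 4.006% at least 2 of them and 0.2251% both a CArG box and a core, on either strand. The full element TGACGTCA (1.695% of promoters, with the core inside it), the Egr site GCGGGGGCG (2.393%) and the Nr4a site AAAGGTCA (1.194%) were in none of the 4 windows, and the window of Nr4a2 held none of the 5 motifs. A match is a string of letters, and binding was not measured.

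The deposited rows are Egr2 at chr10:67373700-67378018, Egr3 at chr14:70314763-70319999, Nr4a1 at chr15:101152150-101172676, Nr4a3 at chr4:48045153-48086445, all on the plus strand, and Nr4a2 at chr2:56996842-57014015 on the minus strand. In the GENCODE vM39 annotation of the same build, no exon of the deposited transcripts of the 6 genes shares bases with an exon of another gene. Their other transcripts were not checked. The start used for Nr4a1, at 101164660, lies inside its deposited row, which begins at an upstream first exon. The start used for Nr4a2, at 57006246, also lies inside its deposited row, so that the windows of these 2 genes are not those before the start of the measured row.

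Egr1, the most abundant Egr gene, was at 0.899 FPKM in the lowest LD mouse, 1.325 at the median and 1.832 in the highest. In ADV it was at 0.726, 2.32 and 13.7 FPKM. The groups overlapped, but 11 of 16 ADV mice were above every LD mouse and 1 was below every one. ADV mouse 25 was highest and mouse 29 second at 12.1 FPKM, while the third, mouse 21, was at 5.01 FPKM. Group means were 1.33 ± 0.33 FPKM (SD, n = 14) in LD and 3.64 ± 3.80 FPKM (SD, n = 16) in ADV. The fitted log2 fold change was 1.45 with a standard error (SE) of 0.35, a fold of 2.74, and the medians stood at a fold of 1.75.

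Egr2 was low, at 0.112, 0.174 and 0.289 FPKM (lowest, median and highest) in LD and at 0.161, 0.355 and 0.763 FPKM in ADV. As for Egr1, 11 of 16 ADV mice were above every LD mouse, and no ADV mouse was below the lowest. Mice 24 and 25 were highest, at 0.763 and 0.731 FPKM. Means were 0.184 ± 0.049 FPKM (SD, n = 14) and 0.366 ± 0.179 FPKM (SD, n = 16), and the log2 fold change was 0.97 (SE 0.21). Egr3 was the lowest of the 6, at 0.032, 0.0745 and 0.205 FPKM in LD and at 0.031, 0.128 and 0.618 FPKM in ADV. Its groups overlapped more, with 5 ADV mice above every LD mouse, and mice 25 and 29 were again highest, at 0.618 and 0.550 FPKM. The log2 fold change of Egr3 was 1.27 (SE 0.35). These values rest on few reads, with a mean of 12.8 in LD and 25.3 in ADV for Egr2, and of 7.64 and 18.5 for Egr3.

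Nr4a1 (Nur77) was the most abundant of the 6 genes, and its difference between the groups was unlike that of the others. It was at 21.4, 35.2 and 49.9 FPKM in LD and at 15.1, 25.4 and 89.1 FPKM in ADV. The ADV mice ran both above and below LD, with 3 above every LD mouse (25, 21 and 33, at 89.1, 79.2 and 55.6 FPKM) and 4 below every one. Means were 34.1 ± 7.64 FPKM (SD, n = 14) and 34.8 ± 21.6 FPKM (SD, n = 16), with a log2 fold change of 0.02 (SE 0.22). The medians stood the other way, at a fold of 0.721. Without mice 21 and 25 the ADV mean of Nr4a1 was 27.8 ± 10.4 FPKM (SD, n = 14) and the log2 fold change was -0.32.

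Nr4a2 (Nurr1) was at 0.046, 0.179 and 0.354 FPKM in LD and at 0.141, 0.259 and 1.86 FPKM in ADV. Only mice 21 and 25, at 1.86 and 0.474 FPKM, were above every LD mouse. The log2 fold change of Nr4a2 was 0.94 (SE 0.31), and 0.38 without mice 21 and 25. Nr4a3 (Nor-1) had the largest ratio of highest to lowest mouse of the 6, at 19.5 in LD and 65.0 in ADV. It ran from 0.174 to 3.39 FPKM in LD (median 0.673) and from 0.221 to 14.4 FPKM in ADV (median 2.67). In ADV, mice 25, 33 and 21 were highest at 14.4, 12.6 and 8.76 FPKM, and 6 of 16 were above every LD mouse. The LD values of Nr4a3 also split, with mice 22, 26 and 35 at 3.39, 3.05 and 2.62 FPKM and the other 11 at or under 1.18 FPKM. Means were 1.15 ± 1.06 FPKM (SD, n = 14) and 3.97 ± 4.30 FPKM (SD, n = 16), and the log2 fold change was 1.77 (SE 0.52), a fold of 3.40.

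**Figure D1:**
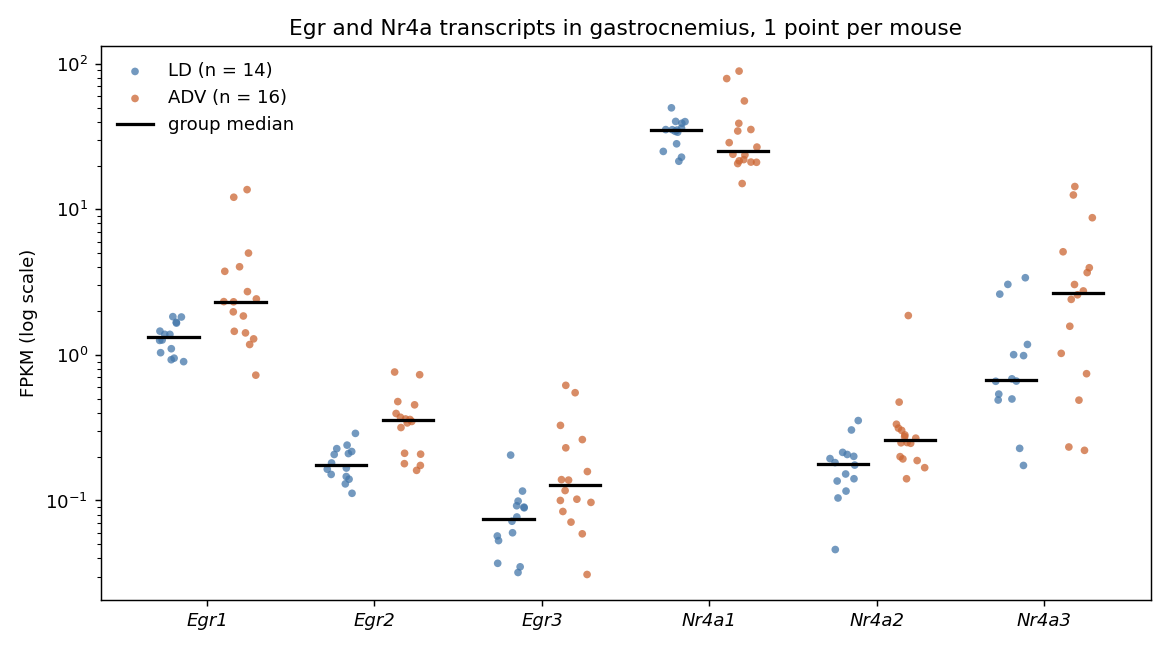
Levels of the 6 genes in FPKM on a log scale, with 1 point per mouse (blue, 14 LD; orange, 16 ADV) and a black bar at the group median. The ADV points of Egr1 and Nr4a3 reach 13.7 and 14.4 FPKM against LD maxima of 1.83 and 3.39, and those of Nr4a1 spread to both sides of LD.

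Of the 3 genes that entered the fit over the filtered genes, Egr1 and Nr4a3 were past the thresholds for a differentially expressed gene (FDR under 0.05 and a fold over 1.3, edgeR) in the direction of higher in ADV, a direction in which 1.45% of the 12030 genes tested were called. In the fit with no filter on low genes, 3 of the 6 were past them (Egr1, Egr2 and Nr4a3), where 0.53% of 32848 genes were called higher. No gene of the 6 was past them as lower in either fit, against 0.648% and 0.259% of genes. The genes were selected on this contrast, and nothing is read from these counts. Nr4a3 was no longer past the thresholds without ADV mouse 25 or without mouse 33, nor without mice 21 and 25 together. With a clock score as a covariate 0 of the 3 were past them, as described with the clock genes.

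Within both groups Nr4a1 was far above the rest, and it was the highest of the 6 in all 14 LD and all 16 ADV libraries. In LD the medians then ran Egr1, Nr4a3, Nr4a2, Egr2 and Egr3. Egr1 was above Nr4a3 in 10 of 14 mice, and Nr4a2 was above Egr2 in 7 of 14, so that these neighbours were not separated by more than their spread. In ADV, Nr4a3 came before Egr1 by its median but was higher in only 9 of 16 mice. Egr2 was above Nr4a2 and Nr4a2 above Egr3 in 14 of 16 mice each. Per length, the 3 most abundant genes were thus Nr4a1, Egr1 and Nr4a3 in either group.

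The spread between mice was larger in ADV for each of the 6 genes. As the SD of log2(FPKM + 0.1), Egr1 had 0.33 in LD and 1.11 in ADV, a ratio of 3.34, where the median over all genes tested was 0.17 in LD, 0.20 in ADV and 1.14 for the ratio. For Egr2 and Egr3 the ratios were 2.12 and 2.20. For Nr4a1, Nr4a2 and Nr4a3 they were 2.14, 1.69 and 1.52. Nr4a3 was variable in both groups, at 1.12 in LD and 1.69 in ADV, and only 0.00831% of genes tested had a larger SD in ADV. The ratio of Nr4a2 was 0.868 without the highest library of each group (LD mouse 21 and ADV mouse 21), while those of the other 5 then lay between 1.57 and 3.00.

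Counting error took a different part of the spread of each gene. Nr4a1 had a coefficient of variation of 22.4% in LD and 62.1% in ADV, where the reads alone would give 2.17% and 2.15%. For Egr1 the coefficient was 24.5% and 104%, against 8.31% and 5.02% from counting. For Egr2 in LD the coefficient was 26.7% and counting alone would give 27.9%, so that no spread between LD mice beyond counting was detectable at this depth. In ADV the coefficient of Egr2 was 48.8%, against 19.9% from counting. For Egr3 it was 55.7% in LD and 89.1% in ADV, where counting alone would give 36.2% and 23.2%. For Nr4a2 it was 43.6% and 114%, against 25.6% and 18.6%.

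**Figure D2:**
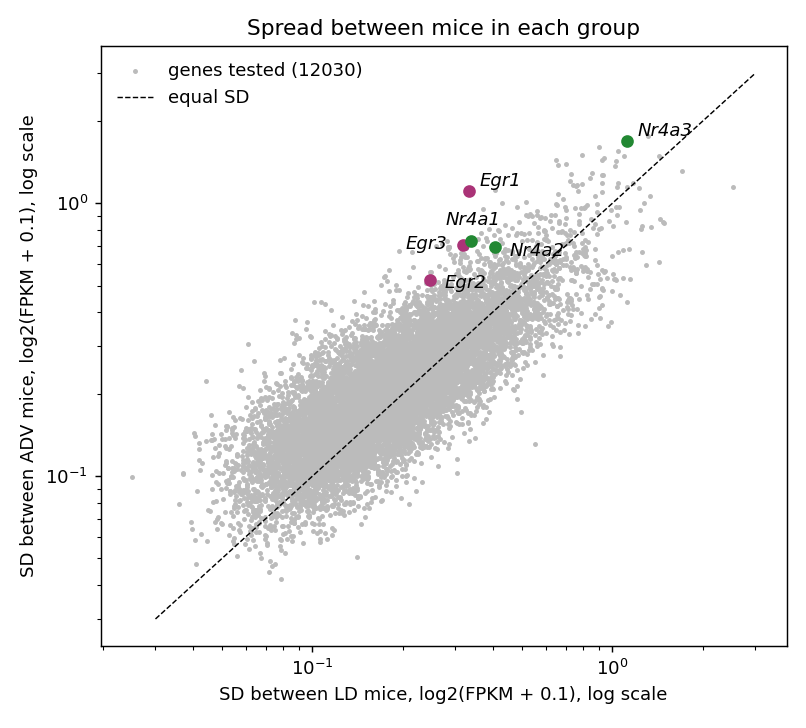
SD between mice of log2(FPKM + 0.1) in LD (horizontal) and ADV (vertical), both on log axes, for the 12030 genes tested (grey), the Egr genes (purple) and the Nr4a genes (green), with a dashed line at equal SD. The 6 genes lie above the line, Egr1 farthest from it at 0.33 and 1.11, and Nr4a3 has the largest SD of the 6 in both groups. Egr2, Egr3 and Nr4a2 did not pass the filter and are not among the genes tested.

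The highest ADV values of the 6 genes often fell on the same mice. The number of ADV mice above every LD mouse ran from 2 of 16 for Nr4a2 to 11 of 16 for Egr1 and Egr2. Mouse 25 was among the 4 highest ADV mice for 6 of the 6 genes, mouse 21 for 5, mouse 33 for 4 and mice 24 and 29 for 3 each. In LD, mouse 26 was among the 4 highest for 4 genes, and 5 further mice for 3 genes each. Without mice 21 and 25 the ADV mean was 2.83 ± 2.83 FPKM for Egr1, 0.340 ± 0.161 for Egr2, 0.153 ± 0.130 for Egr3, 0.244 ± 0.058 for Nr4a2 and 2.89 ± 3.17 for Nr4a3 (SD, n = 14 each). The log2 fold changes were then 1.07 for Egr1, 0.84 for Egr2, 0.91 for Egr3 and 1.29 for Nr4a3. These 4 genes stayed above 0 without the 2 mice, whereas Nr4a1 went from 0.02 (SE 0.22) to -0.32. The 2 mice were picked after the data were seen, and other high mice, such as 29 for Egr1 and 33 for Nr4a3, were kept. The part of a few high mice in the direction is therefore not settled by leaving out these 2.

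Across ADV mice the 6 genes varied together. Of the 15 pairs, 15 had a positive Pearson r of log2(FPKM + 0.1) in ADV, from 0.41 to 0.82 with a median of 0.61 (median Spearman rho 0.68), and 12 were over 0.5. The closest were Nr4a1 with Nr4a3 (0.82), Egr1 with Egr3 (0.82), Egr3 with Nr4a1 (0.76) and Nr4a1 with Nr4a2 (0.75). Pairs of an Egr with an Nr4a gene had a median r of 0.61, pairs of 2 Egr genes 0.57 and pairs of 2 Nr4a genes 0.75. In LD the r values ran from -0.27 to 0.53 with a median of 0.17, and only Nr4a1 with Nr4a3 was over 0.5. When the 2 mice farthest from the median of the first gene of a pair were left out, the median r was 0.59 in ADV and 0.00 in LD. These correlations were part of the choice of the genes and are given without a p, and the difference between the groups was not tested. The points of a group share its libraries, and Egr2, Egr3 and Nr4a2 have counting error that lowers r.

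**Figure D3:**
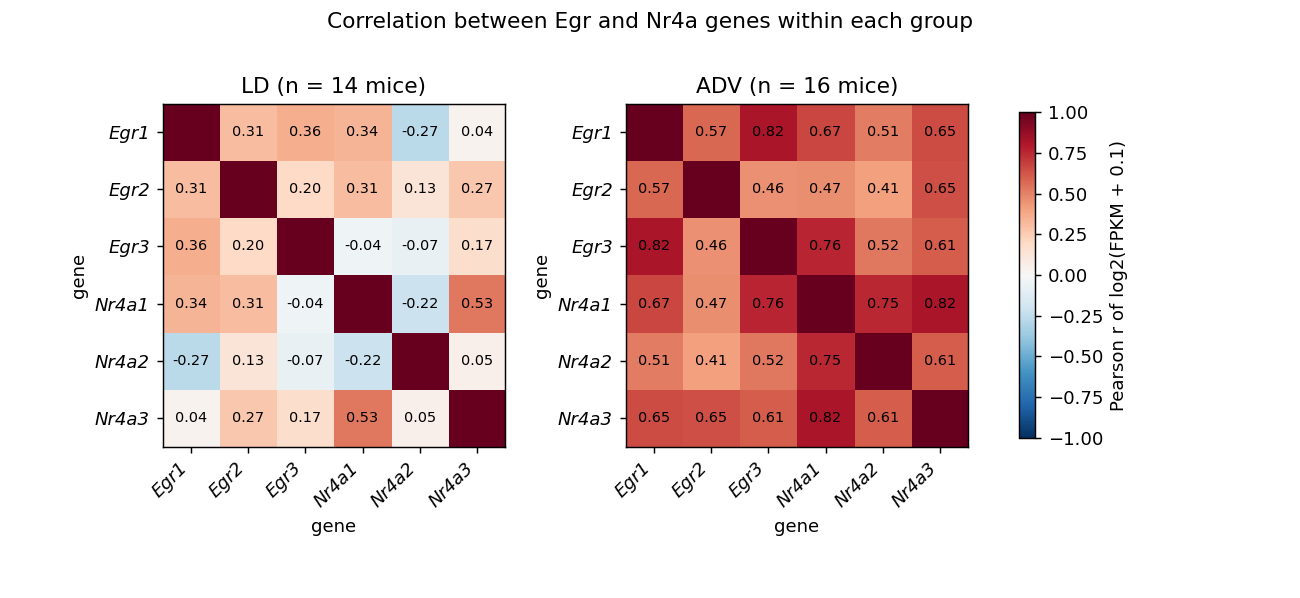
Pearson r of log2(FPKM + 0.1) between each pair of the 6 genes across the 14 LD mice (left) and the 16 ADV mice (right), on a colour scale from -1 (blue) to 1 (red). All 15 ADV pairs are positive, from 0.41 to 0.82, and the LD pairs lie between -0.27 and 0.53.

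The genes were then set against 6 partner genes whose values the selection rule did not use, each within its group. These partners were themselves chosen with earlier results of these data known, so the tests below are not independent of that choice. The partners were Fos, an immediate early gene of the AP-1 family, Hspa1b, an inducible heat shock protein, the clock genes Bmal1 and Dbp, Cirbp, an RNA-binding protein induced by mild cold, and Myh7, the myosin of slow fibers. Over these 72 relations (6 genes, 6 partners, 2 groups), 12 had an adjusted p under 0.05 by Pearson r, 14 by Spearman rho and 10 by both, in two-sided permutation tests with 100000 resamples and Benjamini-Hochberg adjustment over the 72.

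In ADV the genes followed Fos. For Egr1 the r with Fos was 0.94 and rho 0.87 (permutation p = 1e-05, the smallest that these resamples can give, adjusted p = 7.2e-04), and r was 0.86 without the 2 farthest mice. For Egr3 r was 0.86 and rho 0.73 (permutation p = 1e-04, adjusted p = 0.00216), for Nr4a1 0.77 and 0.69 (p = 0.0013, adjusted p = 0.0117) and for Nr4a3 0.66 and 0.76 (p = 0.0049, adjusted p = 0.0353). Without the 2 farthest mice, r for these 3 was 0.67, 0.82 and 0.70. Nr4a2 passed by rho only, with r 0.59 and rho 0.73 (adjusted permutation p = 0.076 and 0.0197), and Egr2 by neither, with r 0.51 and rho 0.54 (adjusted permutation p = 0.152 and 0.131). In LD only Nr4a1 passed with Fos, at r 0.78 and rho 0.71 (permutation p = 0.00104, adjusted p = 0.0107), with r 0.68 without the 2 farthest mice. Fos itself was higher in ADV, at 2.24 ± 1.17 FPKM (SD, n = 14) against 9.03 ± 11.6 FPKM (SD, n = 16), with a log2 fold change of 2.01 (SE 0.46, FDR = 0.00694, edgeR).

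Hspa1b gave a like picture in ADV. Its r was 0.86 with Nr4a1, 0.83 with Egr3 and 0.81 with Nr4a3 (rho 0.85, 0.86 and 0.79, permutation p = 4e-05, 1.4e-04 and 1.5e-04, adjusted p = 0.00144, 0.00216 and 0.00216). Without the 2 farthest mice these r values were 0.73, 0.77 and 0.69. With Egr1 it was 0.69 by r (adjusted permutation p = 0.0233) but 0.49 by rho (adjusted permutation p = 0.165). Nr4a2 passed by rho only, at 0.67 (adjusted permutation p = 0.0339) beside an r of 0.49 (adjusted permutation p = 0.186), and Egr2 by neither, with r 0.57 and rho 0.53 (adjusted permutation p = 0.0878 and 0.134). In LD no gene passed with Hspa1b, the nearest being Nr4a3 with r 0.67 and rho 0.58 (adjusted permutation p = 0.0501 and 0.131). Whether these correlations differ between LD and ADV was not tested.

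The other partners gave fewer relations. Egr2 followed Myh7 in ADV with r 0.73 and rho 0.67 (permutation p = 0.00103, adjusted p = 0.0107), and r was 0.52 without the 2 farthest mice. Nr4a2 passed with Myh7 in ADV by rho only, at 0.73 (adjusted permutation p = 0.0197) beside an r of 0.43 (adjusted permutation p = 0.282). In LD, Nr4a1 passed with Myh7 by r only, at 0.70 (adjusted permutation p = 0.0373) beside a rho of 0.53 (adjusted permutation p = 0.165), and this relation rested on 2 mice, since r was 0.32 without them. Of the clock partners, Bmal1 ran against Nr4a1 in ADV, with r -0.65 and rho -0.64 (permutation p = 0.00696, adjusted p = 0.0418), and r was -0.48 without the 2 farthest mice. The r of -0.75 between Bmal1 and Nr4a2 did not pass (adjusted permutation p = 0.0501) and was -0.18 without 2 mice. Dbp passed once, with Nr4a3 in LD, at rho -0.73 (adjusted permutation p = 0.0266) beside an r of -0.50 (adjusted permutation p = 0.19). Cirbp passed with no gene in either group.

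**Figure D4:**
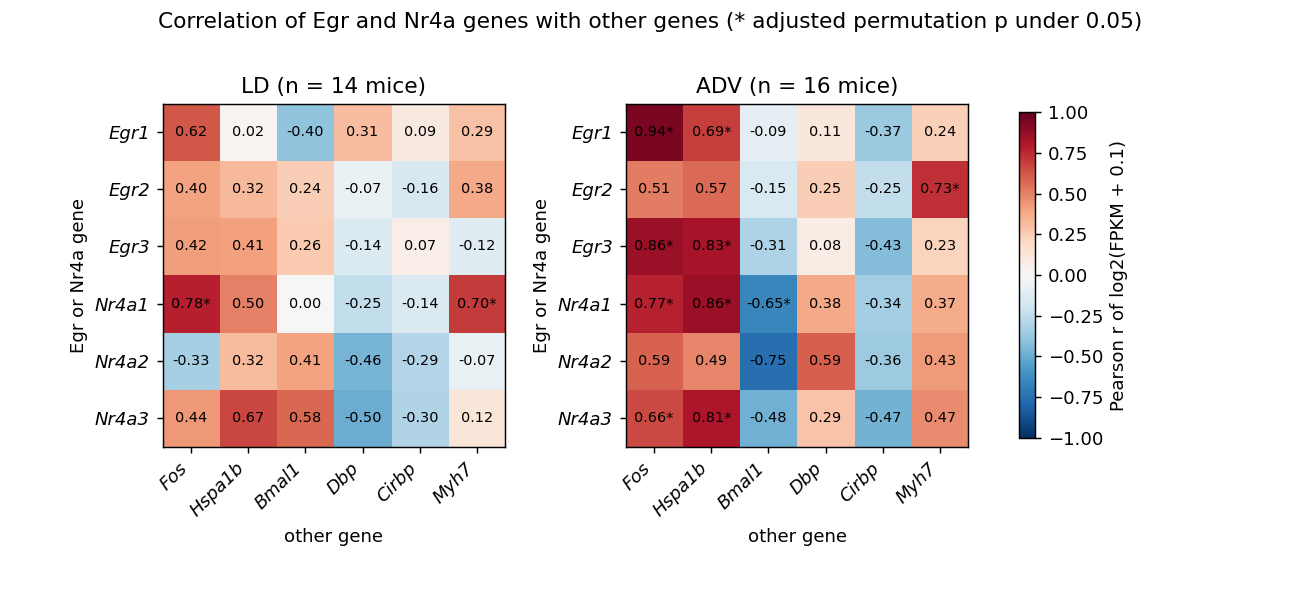
Pearson r of log2(FPKM + 0.1) of the 6 genes (rows) with 6 other genes (columns) across 14 LD mice (left) and 16 ADV mice (right), with a star where the adjusted permutation p was under 0.05. The starred ADV cells are 4 with Fos, 4 with Hspa1b, 1 with Bmal1 and 1 with Myh7, and the 2 in LD are Nr4a1 with Fos and with Myh7.

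Among all genes tested, the ones most like each gene across the 30 mice, once each group's mean was removed, are given by r as a description. Fos (0.89), Btg2 (0.77), Ier5 (0.74), Xirp1 (0.73) and Gm13889 (0.72) were nearest to Egr1. Egr2 was nearest to Flnc (0.83) and Enah (0.81), which encode a filamin and an actin regulator of muscle, and then to Usp28, Bag3 and Gm13889 (0.78 each). Egr3 was nearest to Otud1 (0.80), Fos (0.79), Dnajb1 (0.77), Hspa1a (0.76) and Hspa1b (0.75), the last 3 of them chaperone genes. Its r with Dnajb1 was 0.87 in ADV but 0.13 in LD. Nr4a3 was nearest to Atf3 (0.84), Irs2 (0.83), Garre1 (0.82), Zbtb21 (0.80) and Hspa1a (0.79). Nr4a2 had looser neighbours, Coq10b (0.66), Bcl6b (0.65), Lrrc32 (0.63), 4930523C07Rik (0.62) and Myadm (0.61), and its r with Coq10b was 0.86 in ADV but -0.10 in LD.

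Nr4a1 was nearest to Gm56721 at 0.95, with 0.83 in LD and 0.97 in ADV, followed by Irs2 (0.84), Hspa1b (0.80), Hspa1a (0.79) and Otud1 (0.79). Gm56721 lies at chr15:101158560-101161299 on the plus strand, inside the span of Nr4a1 in the annotation (chr15:101151980-101172681). Its exons share no bases with those of the deposited Nr4a1 transcript. Reads from introns of Nr4a1 and reads of Gm56721 cannot be told apart there. Gm56721 did not pass the test between groups, with a log2 fold change of -0.13 (SE 0.22, FDR = 0.72, edgeR).

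Many immediate early genes outside the 2 families were higher in ADV. The list used here and those below were drawn up with earlier results of these data known. Their counts are therefore a description and no independent evidence. Of 26 listed AP-1 and other immediate early genes, 23 were tested, and 12 rose and 0 fell at an FDR under 0.05 (edgeR), where 5.61% and 5.2% of all genes did. The median log2 fold change of the 23 was 0.47, beside 0.00 over all genes tested, and 22 of them lay above 0, beside 50.8% of all genes. Atf3 had the largest rise, with a log2 fold change of 2.43 (SE 0.49, FDR = 0.00337), then Fos, Ccn1 with 1.13 (SE 0.25, FDR = 0.00556) and Csrnp1 with 1.11 (SE 0.31, FDR = 0.021). Jun, the main partner of Fos, rose by 0.51 (SE 0.11, FDR = 0.00411). Dusp1, a phosphatase that switches off MAP kinases, did not pass, at 0.42 (SE 0.17, FDR = 0.0907). The count of 12 was 7 without mice 21 and 25, and 1 with the clock score as a covariate. The shares of all genes at an FDR under 0.05 in those fits are not given here, so these counts are not weighed.

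Of the genes next to the Egr family, Nab2, a corepressor that binds Egr proteins and is itself an Egr target, was higher in ADV, with 1.71 FPKM in LD and 2.26 FPKM in ADV on average and a log2 fold change of 0.38 (SE 0.10, FDR = 0.0207, edgeR). Nab1 stood at -0.01 (SE 0.08, FDR = 0.953). Egr4 and Wt1, which binds like sites, averaged under 0.01 FPKM in both groups and were not tested.

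A list of regulators in the SRF, CREB, MEF2 and NFAT pathways held fewer calls in number than the immediate early list, and the difference between the lists was not tested. Of its 24 genes, 4 rose and 1 fell at an FDR under 0.05, where 5.61% and 5.2% of all genes did, with 13 above 0 and a median log2 fold change of 0.02. Rcan1, an inhibitor of calcineurin that is induced by NFAT, rose from 47.9 ± 22.4 FPKM (SD, n = 14) to 117 ± 59.8 FPKM (SD, n = 16), with a log2 fold change of 1.27 (SE 0.25, FDR = 0.00251). The other 3 that rose did so by less, Nfatc4 by 0.29, Nfatc1 by 0.22 and Hdac5 by 0.22 (FDR = 0.0404, 0.0442 and 0.00778). Ppp3cb, a catalytic subunit of calcineurin named here after its value was seen, fell by 0.20 (FDR = 0.0292). Mef2c and Ppp3ca, the most abundant others, stood at -0.10 and -0.11 (FDR = 0.401 and 0.082). The count of 4 was 2 in the fit with no filter, where 1.14% of 32848 genes rose at that FDR. It was 2 without mice 21 and 25 and 0 with the clock score, fits whose shares of all genes are not given here.

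Metabolic genes known to answer to Nr4a factors in muscle gave no call, which in a list this short is near the share over all genes. Of 12 listed and tested genes, 0 rose and 0 fell at an FDR under 0.05 (edgeR), where 5.61% and 5.2% of all genes did, while 3 were higher and 1 lower at an unadjusted p under 0.05, and DESeq2 and limma called 0 as well. Their median log2 fold change was 0.01. The abundant Pygm, Eno3 and Pfkm (glycogen phosphorylase, muscle enolase and phosphofructokinase) stood at -0.09, 0.05 and 0.00 (SE 0.07, 0.06 and 0.06).

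Whole muscle holds other cells that carry these genes, and in bulk samples more cells of a type cannot be told apart from more RNA per cell. Schwann cell markers stood on the same side as Egr2. Of 10 listed, 7 were tested, and 7 lay above 0, beside 50.8% of all genes. The median log2 fold change of the 7 was 0.45, beside 0.00 over all genes tested. At an FDR under 0.05 in edgeR 0 passed, where 5.61% of all genes rose. At an unadjusted p under 0.05 in edgeR 6 were higher, and DESeq2 called 4 higher. The shares of all genes for these last 2 counts are not given here, so they are not weighed. Pmp22 and Mbp, which encode proteins of myelin, stood at 0.22 and 0.45 (FDR = 0.0948 and 0.0612). The list summed to 25.6 to 49.7 FPKM in LD and 27.95 to 86.5 FPKM in ADV, and Egr2 followed that sum with r 0.49 in LD and 0.56 in ADV. For the other 5 genes the r with it lay between -0.30 and 0.23. Egr2 also had an r of 0.61 with the endothelial sum in ADV and 0.25 in LD. In LD its r was -0.64 with the macrophage sum and -0.64 with the fibroblast sum (-0.05 and 0.11 in ADV). The LD values of Egr2 had no detectable spread beyond counting error, and none of these r values was tested. Egr1 had an r of 0.58 with the endothelial sum in LD and 0.18 in ADV. The part of any of these cells in the level of Egr2 was not tested.

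Macrophage markers gave 0 of 8 in either direction at an FDR under 0.05 (edgeR), where 5.61% of all genes rose and 5.2% fell. They had 0 higher and 4 lower at an unadjusted p under 0.05, and DESeq2 called 1 lower. They summed to 81.6 to 212 FPKM in LD and 71.5 to 147 FPKM in ADV. Of 8 endothelial markers Pecam1 rose, by 0.16 on the log2 scale (FDR = 0.0323), and the sums were 74.8 to 101 FPKM and 84.8 to 110 FPKM. Of 6 fibroblast markers Pdgfra, named here after its value was seen, fell by 0.24 (FDR = 0.0194), and the sums were 272 to 359 FPKM and 236 to 379 FPKM. Of the 8 muscle fiber genes 0 passed in edgeR, DESeq2 or limma, with 1 lower at an unadjusted p under 0.05. Against those shares, nothing is read from 1 call in a list of 6 or 8 genes. The share of all genes at an unadjusted p under 0.05 is not given here. No listed marker gene was at 0 in all libraries. Their part in the levels of the 6 genes was not tested.

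The clock genes differed between the groups at the time of sampling. Of 4 genes that peak with Bmal1, 2 were higher in ADV at an FDR under 0.05 (edgeR), where 5.61% of all genes were. Bmal1 rose by 0.64 and Cry1 by 0.54 on the log2 scale (FDR = 0.00844 and 0.00142). Npas2 at 0.16 and Clock at -0.09 did not pass (FDR = 0.733 and 0.563). Of 8 genes of the opposite phase 7 were lower, where 5.2% of all genes were. Ciart fell by the most, with a log2 fold change of -1.86 (FDR = 0.00378). A clock score, the mean standardized log2 level of the first list less that of the second, ran from -2.95 to 1.22 in LD and from -1.44 to 2.53 in ADV. Within ADV the score ran against all 6 genes, with r from -0.77 for Nr4a2 and -0.69 for Nr4a1 to -0.31 for Egr1, while in LD it ran from -0.25 for Egr1 to 0.53 for Nr4a3. With the score in the fit, the log2 fold changes were 1.77 for Egr1, 1.11 for Egr2, 1.56 for Egr3, 0.29 for Nr4a1, 1.40 for Nr4a2 and 1.85 for Nr4a3, none of them smaller than without it, although 0 of the 3 in that fit were past the thresholds. In that fit 8 genes of 12030 were called higher and 0 lower. The score differs between the groups, and how much of a difference goes with the clock phase and how much with the schedule cannot be told apart by it.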

How the data were processed

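The authors deposited 2 tables for 30 libraries of gastrocnemius muscle (14 LD, 16 ADV, grouped by their labels), each with 57186 rows. One holds estimated counts, made by the authors without normalization. Paired 101-bp stranded poly(A) reads were trimmed with Trimmomatic, mapped to GRCm39 (mm39) with STAR 2.7.10a, filtered with SAMtools at a mapping quality of 10 and counted on exons with HOMER 4.11 (versions per the submitters' notes). The strand option of the counting is not given in the sources used here. A mate counts as 0.5 read, so that 14.8% of values had a fraction. Values were rounded before testing. The deposited FPKM values are those counts by exon length and library total, by the authors.

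Symbols on several rows (232) were taken from the longest expressed row. Counts were tested in edgeR 4.0.16 (quasi-likelihood, TMM) under R 4.3.3, with Benjamini-Hochberg adjustment (FDR) over the 12030 genes that averaged more than 20 reads and 0.5 FPKM. Fold changes of Egr2, Egr3 and Nr4a2 came from the same fit with no filter. Correlations used log2(FPKM + 0.1), scipy 1.17.1 and 100000 permutations. The 6 genes, their partners, the pathway lists and the markers of other cells were chosen with earlier results of these data known. Genes named were the 6, their 6 partners, the 5 genes most like each, and, of each list, the 3 most abundant and up to 4 with the largest change past an FDR of 0.05. Alternatives were DESeq2 1.42.0, limma 3.58.1 on log2(FPKM + 0.1) and log2(FPKM + 1), other size factors and filters, summed rows, a clock score, a GC trend, a replicate block and leaving out each mouse. The scripts were tested on simulated counts. Motifs were searched on both strands in GENCODE vM39 canonical transcripts of protein-coding genes. The starts of Egr1 and Egr3, and 1 of the abundant genes of a marker list, are not reported here. Protein sequences were not used here.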

Additional observations from a re-analysis of the deposited data

How the results depend on the processing

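The counts of all differentially expressed genes (174 higher, 78 lower) moved by over 1.5 times under limma on log2(FPKM + 1) (105 and 18), the clock score (8 and 0) and, for the lower ones, limma on log2(FPKM + 0.1) (49) and removal of the GC trend (46). Leaving out each mouse gave 125 to 208 higher and 58 to 99 lower genes. It gave log2 fold changes of 1.14 to 1.53 for Egr1, 0.85 to 1.02 for Egr2, 1.01 to 1.44 for Egr3, -0.15 to 0.08 for Nr4a1, 0.47 to 1.04 for Nr4a2 and 1.47 to 1.99 for Nr4a3. The lowest value of Nr4a2 was that without ADV mouse 21. A pseudocount shrinks low genes, with 0.20 for Egr2, 0.13 for Egr3 and 0.17 for Nr4a2 under limma on log2(FPKM + 1), and 0.56 for Egr3 on log2(FPKM + 0.1). DESeq2 gave 0.47 for Nr4a2. Nr4a1 stood at -0.13 and -0.12 under limma and at -0.08 with the GC trend removed. Egr1 was called by limma with either pseudocount and Nr4a3 by neither. The SD ratio of Nr4a2 turned to 0.868 without the highest library of each group. On log2(FPKM + 1) the SD ratios of Egr3 and Nr4a2 moved to 3.31 and 3.27. The immediate early genes called higher were 9 to 13 without 1 mouse each, 1 with the clock score and 7 with the GC trend removed. They were 7 without mice 21 and 25, a setting added after the data were seen. These counts use an FDR under 0.05 alone, and the shares of all genes in those fits are not given here. The causes were not tested.

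The labels give both groups the numbers 21 to 23 and 26 to 36. Same-numbered mice had r of -0.26 to 0.43 over 14 pairs, with 6 over 0.1 and 3 best with their own number. What unlinked mice would give was not computed, so these values cannot decide whether the number marks a link. It is used here as a name. The fit with a replicate block leaves out ADV mice 24 and 25 and called 94 genes higher and 43 lower, against 104 and 47 for the same 28 libraries without the block. It called 5 immediate early genes against 7 at an FDR under 0.05, where the shares of all genes are not given here. Of the 6 genes it called Egr1 alone, as did the fit without the block. The count of partner correlations with an adjusted p under 0.05 was 10 to 14 over its alternatives. Means of 7.64 to 29.03 reads per group limit the values of single mice for Egr2, Egr3 and Nr4a2.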
